A study of Arabidopsis thaliana with 7 samples.

Results

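The 39 genes described here are nuclear genes of the photosynthetic apparatus of Arabidopsis thaliana. They were taken by gene identifier as a fixed list of light-harvesting LHCA and LHCB genes, RBCS genes, and nuclear-encoded subunits of photosystems I and II. The rule goes by gene function and uses no expression value, though the list was drawn up with earlier results of these data known. They are 39 of the 32548 genes in the count table, and all 39 were also found in the FPKM files and passed the filter on low counts. By role, 9 encode the major antenna (LHCII), 4 the minor LHCB antenna, 4 the LHCA antenna, 4 the small subunit of Rubisco, 9 photosystem I subunits and 9 photosystem II subunits.

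Light-harvesting proteins bind chlorophyll and carotenoids and pass excitation energy to the photosystems, with LHCB proteins serving mainly photosystem II and LHCA proteins photosystem I. Photosystem II splits water with the help of extrinsic proteins on its lumenal side, photosystem I reduces ferredoxin, and Rubisco fixes carbon dioxide in the Calvin cycle. In green seedlings these genes are among the most abundant messenger RNAs and respond together to light, plastid state and development.

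Whole young seedlings of the Col-0 background, 10 days after germination, were grown on agar medium at 22 °C under long days (light for 16 h, dark for 8 h). Total RNA was sequenced from 2 libraries of wild type (WT, labelled Col-0 WT) and 2 libraries labelled hon45 mutant, from plants in which HON4 and HON5 are affected. Both groups had the same growth conditions, and no other treatment is given. The labels state neither the alleles of hon45 nor the number of plants per library, and no HON4 or HON5 single mutant is among the samples. The question put by the study's design is which genes HON4 and HON5 regulate.

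The libraries held between 53858439 and 63543079 counts. HON5 had 97.7 and 91.7 CPM (counts scaled to library size) in WT against 14.0 and 15.9 in hon45, and HON4 had 99.3 and 104.1 against 39.2 and 41.0, so both targeted transcripts were lower in the libraries labelled hon45 (log2 fold changes -2.66 and -1.34; edgeR adjusted p = 3.09e-12 and 5.42e-08). Replicates of a group differed by more than sampling noise, with a chi-square per degree of freedom of 22.2 for the WT pair and 14.9 for the hon45 pair. No source says that replicates came from separately grown plants, so p-values measure the spread between these libraries, which may be technical. Ribosomal RNA genes took 2.41% and 2.67% of counts in WT, and 2.26% and 1.22% in hon45. Of 17 root marker genes, all were above the filter on low counts, and they summed to 3562 and 3928 CPM in WT against 4197 and 4303 in hon45. Most of that sum was PYK10, an abundant root beta-glucosidase, and without it the sum was 503.4 and 443.2 CPM in WT against 358.8 and 384.5 in hon45.

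Transcripts of the 39 genes were among the most abundant of these seedlings. By FPKM, a level scaled to transcript length, they held the 9 highest ranks among 33554 genes, and 17 of the highest 20. The highest was LHCB1.5, an LHCII gene, at 17135 ± 358 FPKM in WT and 16117 ± 82.0 in hon45 (SD, n = 2 each). LHCB1.3, another LHCII gene, stood next to it at 14458 ± 1617 and 16510 ± 59.8 FPKM. LHCB1.5 was the higher of this pair in both WT libraries and the lower in both hon45 libraries, where LHCB1.3 reached 16552 FPKM.

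After these came PSBR, a photosystem II subunit, at 8428 ± 410 FPKM in WT, above all libraries of the genes that follow, and then LHCA1, RBCS1A, LHCA3, LHCA4, LHCB5 and LHCB3. The means of these last 6 over all libraries lay between 5694 and 6510 FPKM, and their libraries overlapped in level. The lowest members by FPKM were RBCS2B at 555.0 ± 124 and RBCS1B at 218.2 ± 24.1 in WT. By this unit RBCS1B, at rank 576 of all genes, lay apart from RBCS2B, with no overlap between their libraries. In CPM, not scaled to transcript length, they overlapped in WT, at 1411 and 1919 for RBCS1B and 1343 and 1923 for RBCS2B. PSAH2 was lower than both in CPM, at 636.1 and 764.6 in WT. The levels of single RBCS copies are therefore uncertain.

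**Figure D1:**
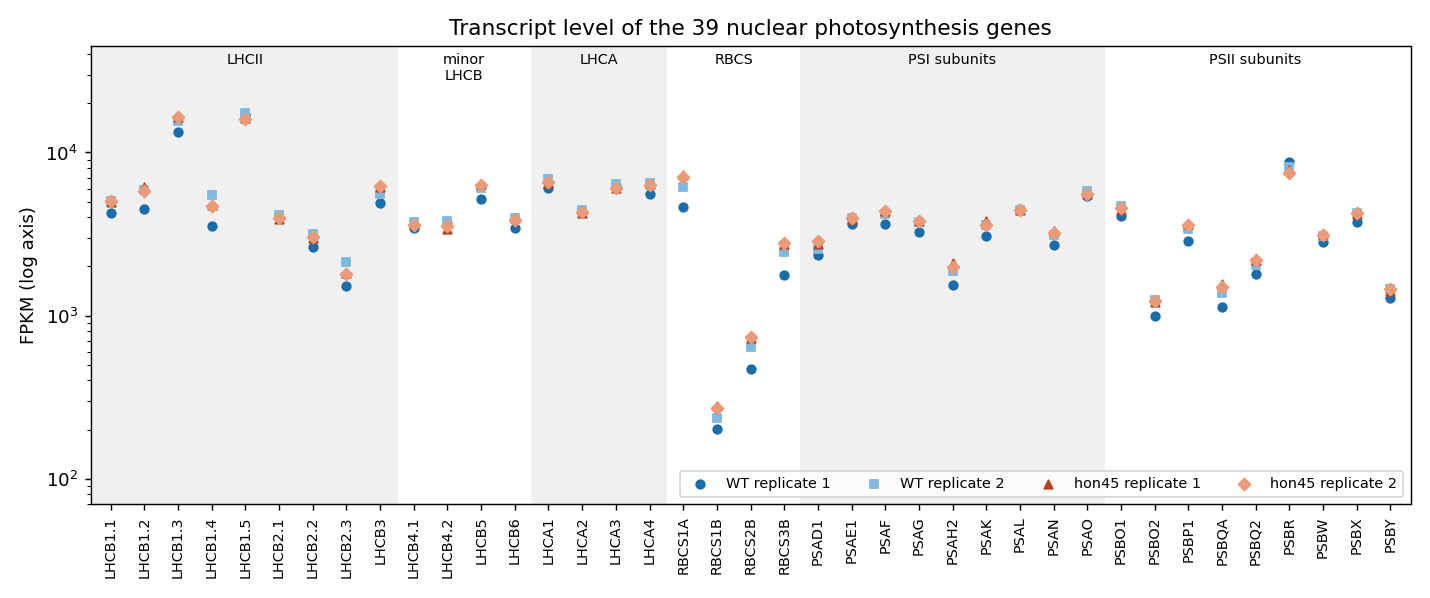
FPKM (vertical, log axis) of each of the 39 genes in each library, with genes grouped by role along the horizontal axis and each point a library. LHCB1.3 and LHCB1.5 stand highest at 13315 to 17388 FPKM and RBCS1B lowest at 201.2 to 278.5, and for most genes the WT replicate 1 point is the lowest of the 4.

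In the comparison of hon45 with WT, 0 of the 39 genes rose and 0 fell at an adjusted p under 0.05 (edgeR quasi-likelihood test, Benjamini-Hochberg adjustment over all tested genes). Of all 29226 genes tested, 4.1% were called in either direction, 2.48% as higher and 1.63% as lower. At an unadjusted p under 0.05, 3 members passed (RBCS2B, RBCS3B and PSBQA) against 17.9% of all genes. DESeq2 called 2 members as higher beside 5.22% of all genes with an adjusted p, limma-voom 3 beside 2.79%, and the older edgeR quasi-likelihood method 1 beside 2.37%, all of them RBCS genes. Hon45 and WT libraries did not overlap for 20 of the 39, beside 49.3% of all genes. Log2 fold changes of the members ran from -0.15 for PSBR to 0.50 for RBCS2B, with 30 above 0 and 9 below. Their median was 0.08 beside -0.04 over all tested genes.

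The precision of the edgeR fit limits what could be seen: the median half-width of the 95% interval of a member's log2 fold change was 0.38. For 32 of the 39 the standard error (SE) from the fit, which draws on the spread of other genes, was larger than the SE from the gene's own libraries, with medians of 0.18 and 0.10. The SE also moved with the setting. For LHCB1.3 it was 0.281 in this fit, 0.124 with a filter of 5 CPM in 2 libraries and 0.102 with limma-voom. With a block for the replicate number it was 0.414. In whole seedlings, a different number of green cells and a different amount of these transcripts per green cell cannot be told apart. The sign of the log2 fold change was turned by at least 1 alternative setting for 18 of the 39 genes, whose log2 fold changes lay within 0.13 of 0, and for 0 of the RBCS genes.

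LHCII trimers are built from LHCB1, LHCB2 and LHCB3 proteins. Their 9 genes include 5 copies of LHCB1 and 3 of LHCB2. Log2 fold changes ran from -0.08 to 0.25 with a median of 0.02. Hon45 libraries lay above both WT libraries for 2 genes and below both for 1, beside 23.1% and 26.2% of all tested genes.

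LHCB3 (AT5G54270), whose product is part of LHCII trimers, had 4072 and 4607 CPM in WT and 5034 and 5269 in hon45. Both hon45 libraries were higher than both WT libraries, and this was the largest log2 fold change of the LHCII group, 0.25 ± 0.20 (SE; edgeR adjusted p = 0.573). The gene lies on chromosome 5, in a locus listed from 22038273 to 22046298 on TAIR10 that it shares with the overlapping AT5G54280.

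LHCB1.5 (AT2G34420), on chromosome 2 in a merged locus from 14518406 to 14523568, had 14030 and 14380 CPM in WT and 13300 and 13560 in hon45. The hon45 libraries were lower than both WT libraries by a small margin, and the log2 fold change of -0.08 ± 0.28 was the lowest of the group (edgeR adjusted p = 0.918). A long noncoding RNA gene, AT2G08665, overlaps it and had nearly the same counts in every library, for example 915638 against 915625 in WT replicate 2, so the same reads entered both rows. Counts do not tell these transcripts apart.

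The remaining LHCB1 genes had log2 differences between 0.02 and 0.18. LHCB1.3 (AT1G29930) had 11830 and 13860 CPM in WT and 14350 and 14780 in hon45, a log2 difference of 0.18, and LHCB1.2 (AT1G29910) differed by 0.17, LHCB1.1 (AT1G29920) by 0.06 and LHCB1.4 (AT2G34430) by 0.02. Of these 4, only LHCB1.3 had hon45 libraries above both WT libraries. The widest gaps were between WT replicates: LHCB1.4 had 3917 CPM in WT replicate 1 and 5394 in WT replicate 2, and LHCB2.3 (AT3G27690) had 1015 and 1405. Their hon45 libraries, 4687 and 4762 for LHCB1.4 and 1204 and 1216 for LHCB2.3, fell between these WT values. LHCB2.1 (AT2G05100) and LHCB2.2 (AT2G05070) differed by -0.05 and -0.01 on the log2 scale.

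The minor antenna proteins LHCB4, LHCB5 and LHCB6 are monomers that connect LHCII trimers to the photosystem II core. LHCB5 (AT4G10340, chromosome 4, 6408016 to 6409677) was the member of this group with the highest FPKM, 5586 ± 608 in WT and 6388 ± 87.0 in hon45. Its libraries had 4650 and 5386 CPM in WT and 5730 and 5802 in hon45, the latter both higher. The log2 fold change was 0.20 ± 0.21 (edgeR adjusted p = 0.684). LHCB4.2 (AT3G08940), a copy of LHCB4 on chromosome 3, had 3105 and 3153 CPM in WT and 2809 and 3004 in hon45. Here both hon45 libraries were lower, with a log2 fold change of -0.11 ± 0.18 (edgeR adjusted p = 0.813). The other LHCB4 copy, LHCB4.1 (AT5G01530), differed by 0.02, and LHCB6 (AT1G15820) by 0.08, each with overlapping libraries.

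LHCA proteins form a belt of antenna on photosystem I. Log2 fold changes of the 4 genes lay between -0.06 and 0.08. LHCA1 (AT3G54890, chromosome 3, 20339504 to 20341103) had the highest level, 6449 ± 593 FPKM in WT and 6572 ± 83.9 in hon45. In CPM it stood at 4914 and 5554 in WT and 5228 and 5488 in hon45, with overlapping libraries and a log2 fold change of 0.03 ± 0.21 (edgeR adjusted p = 0.957). LHCA4 (AT3G47470), with 5349 and 6171 CPM in WT against 6008 and 6159 in hon45, was the highest of the 4 in log2 fold change at 0.08 ± 0.22 (edgeR adjusted p = 0.894). LHCA3 (AT1G61520) had 5560 and 5692 CPM in WT and 5319 and 5514 in hon45. It was the only LHCA gene whose hon45 libraries lay below both WT libraries, at a log2 fold change of -0.06 ± 0.21 (edgeR adjusted p = 0.928). LHCA2 (AT3G61470) differed by -0.02.

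The RBCS genes had the 4 largest log2 fold changes of the 39. Rubisco small subunits are made in the cytosol, imported into the chloroplast and assembled with the plastid-encoded large subunit. All 4 genes had both hon45 libraries above both WT libraries, an arrangement found in 23.1% of all tested genes and in 16 of the 39 members. Their median log2 fold change was 0.45, and none of the 4 was called by the edgeR quasi-likelihood test.

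RBCS1A (AT1G67090, chromosome 1, 25048158 to 25049424) had 3430 and 4565 CPM in WT and 5352 and 5342 in hon45. WT replicate 1 was the lowest library, and the hon45 libraries nearly coincided. The log2 fold change was 0.42 ± 0.21, with a 95% interval from -0.02 to 0.86 (edgeR adjusted p = 0.309). The other 3 genes lie side by side on chromosome 5, within 8.1 kb from 15377173 to 15385247.

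RBCS2B (AT5G38420) had 1343 and 1923 CPM in WT and 2104 and 2513 in hon45, and was the only RBCS gene with a clear gap between the hon45 libraries. It had the largest log2 fold change of the 39 genes, 0.50 ± 0.18 with an interval from 0.12 to 0.88 (edgeR adjusted p = 0.143). RBCS3B (AT5G38410) had 2972 and 4004 CPM against 4815 and 4876, a log2 fold change of 0.47 ± 0.21 (edgeR adjusted p = 0.228). RBCS1B (AT5G38430) had the smallest log2 fold change of the family, 0.35 ± 0.17, from 1411 and 1919 CPM in WT and 2193 and 2046 in hon45 (edgeR adjusted p = 0.298). In each of the 4 genes the gap from WT replicate 1 to WT replicate 2 was of the same order as the difference between genotypes, from 0.41 to 0.52 on the log2 scale.

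Whether RBCS genes passed depended on the method and on which WT library was kept. DESeq2 called RBCS1A (adjusted p = 0.0251) and RBCS3B (0.0114). Limma-voom called RBCS1A (adjusted p = 0.0359), RBCS2B (0.0295) and RBCS3B (0.0205), and the older edgeR method called RBCS3B (adjusted p = 0.0349). Without WT replicate 2, the edgeR test called RBCS1B, RBCS2B and RBCS3B together with PSBQA, while 7.46% of all genes were called as higher. Without WT replicate 1 it called 0 of the 39 beside 3.1% of all genes in either direction, and the log2 fold changes of the 4 RBCS genes lay between 0.15 and 0.28. On log2(FPKM + 1), the limma fit gave differences of 0.34 to 0.43 for the 4 genes with adjusted p-values of 0.127 to 0.173. With the 4 copies summed, the family had a log2 fold change of 0.44 ± 0.30 (edgeR adjusted p = 0.479). This SE was larger than those of the single copies, 0.17 to 0.21. The SE from the fit draws on the spread of other genes, so it does not show by itself that the sum is noisier.

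Photosystem I subunits had a median log2 fold change of 0.14, with 7 of 9 above 0. Hon45 libraries lay above both WT libraries for 5 genes (PSAD1, PSAF, PSAH2, PSAK and PSAN) and below both for 0. Over all tested genes these shares were 23.1% and 26.2%. PSAO (AT1G08380) had the highest level, 5606 ± 273 FPKM in WT and 5593 ± 9.5 in hon45. With PSAH and PSAL (AT4G12800) it forms the side of photosystem I where LHCII docks during state transitions. In CPM it had 2443 and 2577 in WT and 2472 and 2535 in hon45, so that the hon45 libraries lay between the WT libraries. Its log2 fold change of 0.00 ± 0.17 was the lowest of the group (edgeR adjusted p = 0.994), and PSAL, which had 3154 and 3095 CPM in WT against 3071 and 3169, was as close to 0.

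PSAH2 (AT1G52230, chromosome 1, 19454836 to 19455668) was at the other end. It had 636.1 and 764.6 CPM in WT and 849.0 and 820.5 in hon45, with no overlap and a log2 fold change of 0.25 ± 0.13 (edgeR adjusted p = 0.331). PSAD1 (AT4G02770), part of the stromal docking site for ferredoxin, differed by 0.19, with 1333 and 1423 CPM in WT and 1519 and 1633 in hon45. PSAF (AT1G31330) and PSAN (AT5G64040), on the lumenal side where plastocyanin binds, differed by 0.17 and 0.16. PSAK (AT1G30380) and PSAG (AT1G55670), which sit at the edge of the complex next to the antenna, differed by 0.14 and 0.11, and the stromal subunit gene PSAE1 (AT4G28750) by 0.05. PSAG shares its locus with AT1G55673, which had 67702 counts to its 91004 in WT replicate 1, and PSAE1 overlaps AT4G28755, which had 49744 to its 88083, so part of these counts cannot be assigned to either gene.

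Photosystem II subunits had a median log2 fold change of 0.08, with 8 of 9 above 0. Hon45 lay above both WT libraries for 4 (PSBP1, PSBQA, PSBQ2 and PSBW), beside 23.1% of all tested genes. The extrinsic proteins PSBO, PSBP and PSBQ shield the manganese cluster that oxidizes water. PSBQA (AT4G21280, chromosome 4, 11334402 to 11335773) had 709.7 and 852.1 CPM in WT and 955.6 and 948.4 in hon45. Both hon45 libraries were higher and nearly equal, and the log2 fold change of 0.29 ± 0.14 was the largest outside the RBCS genes (edgeR adjusted p = 0.275). Without WT replicate 2 PSBQA was called (edgeR adjusted p = 0.0399). PSBQ2 (AT4G05180), the second PSBQ gene, differed by 0.20 and PSBP1 (AT1G06680) by 0.22. PSBO1 (AT5G66570) and PSBO2 (AT3G50820) differed by 0.04 and 0.13, with overlapping libraries.

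PSBR (AT1G79040), which helps to hold the extrinsic proteins in place, went the other way. It had 4047 and 3724 CPM in WT and 3530 and 3489 in hon45, and no other photosystem II gene had its hon45 libraries below both of WT. In contrast to most of the 39 genes, its highest library was WT replicate 1. The log2 fold change was -0.15 ± 0.19, the lowest of all 39 (edgeR adjusted p = 0.747). Across the 39 genes, hon45 lay below both WT libraries for 4 (LHCB1.5, LHCB4.2, LHCA3 and PSBR), beside 26.2% of all tested genes. The small intrinsic subunits PSBW (AT2G30570), PSBX (AT2G06520) and PSBY (AT1G67740) differed by 0.08, 0.07 and 0.08.

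WT replicate 1 was the lowest of the 4 libraries in 32 of the 39 genes (82.1%), where it was lowest in 27.5% of all tested genes. The gap between replicates was larger in WT than in hon45 for 34 of the 39 (87.2%), beside 50.2% of all genes, and the median SD on the log2 scale was 0.13 in WT and 0.03 in hon45. Over all tested genes these medians were 0.11 and 0.10. The replicates of the 39 genes were thus closer than those of the median gene in hon45 and slightly further apart in WT. Most tested genes had lower levels than the 39, and genes of like level were not compared. Relative to each gene's mean over the libraries, the median member stood at -0.15 in WT replicate 1, 0.04 in WT replicate 2, and 0.03 and 0.07 in hon45, in log2 units. WT replicate 2 was therefore close to the hon45 libraries, and WT replicate 1 was not.

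The roles differed in how far WT replicate 1 stood off. Its median deviation was -0.44 for RBCS, -0.21 for LHCII, -0.15 for photosystem I, -0.12 for photosystem II, -0.10 for the minor LHCB and -0.06 for LHCA genes. Of the 6 roles, RBCS had the widest gap between WT replicate 2 and hon45, with medians of -0.01 in WT replicate 2 and 0.23 and 0.24 in hon45. Left out of the fit, WT replicate 1 took the median log2 fold change of the 39 genes from 0.08 to 0.005, with 20 genes above 0 and 19 below. Left out instead, WT replicate 2 gave a median of 0.21 with 33 above 0. The root marker sum was lowest in WT replicate 1 with PYK10 included, at 3562 CPM, and highest there without PYK10, at 503.4 CPM. The part of root tissue in these differences was not tested.

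**Figure D2:**
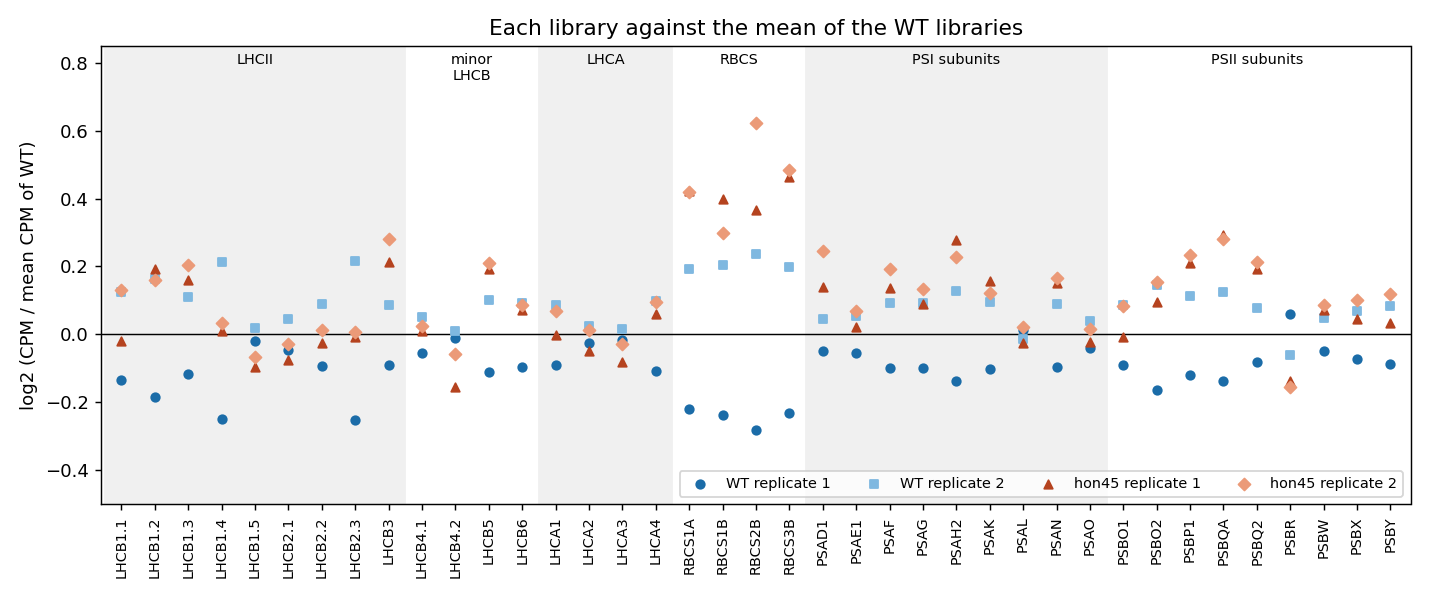
Log2 ratio of each library's CPM to the mean CPM of the WT libraries (vertical) for the 39 genes grouped by role (horizontal), with each point a library. WT replicate 1 is the lowest point in 32 of 39 genes, hon45 libraries lie above both WT libraries in all 4 RBCS genes, and PSBR shows the opposite order.

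Summed over each library, the 39 genes took 13.6% and 15.4% of all counts in WT and 15.4% and 15.3% in hon45. WT replicate 2 and the hon45 libraries were alike, and the difference of the means, 0.85 percentage points, was smaller than the WT SD of 1.27. By summed FPKM they held 16.4% and 18.7% in WT against 18.8% and 18.6% in hon45. LHCII genes alone took 5.95% and 6.83% of counts in WT and 6.64% and 6.62% in hon45. RBCS genes took 0.92% and 1.24% in WT and 1.47% and 1.45% in hon45, with hon45 above both WT libraries. The total includes reads counted for more than 1 overlapping gene, so these shares are of counts and not of molecules.

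Ratios within a library do not depend on its total. For every 100 LHCII counts there were 15.5 and 18.2 RBCS counts in WT and 22.1 and 21.9 in hon45, which put the hon45 libraries above both WT libraries. LHCA counts numbered 33.0 and 31.2 in WT against 30.9 and 31.0 in hon45. Photosystem I subunits had 93.5 and 93.6 counts per 100 photosystem II counts in WT and 95.4 in each hon45 library, a small shift with tight replicates. These ratios are described and were not tested; with 2 libraries against 2, an exact permutation test cannot pass a threshold of 0.05, however tight the replicates.

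**Figure D3:**
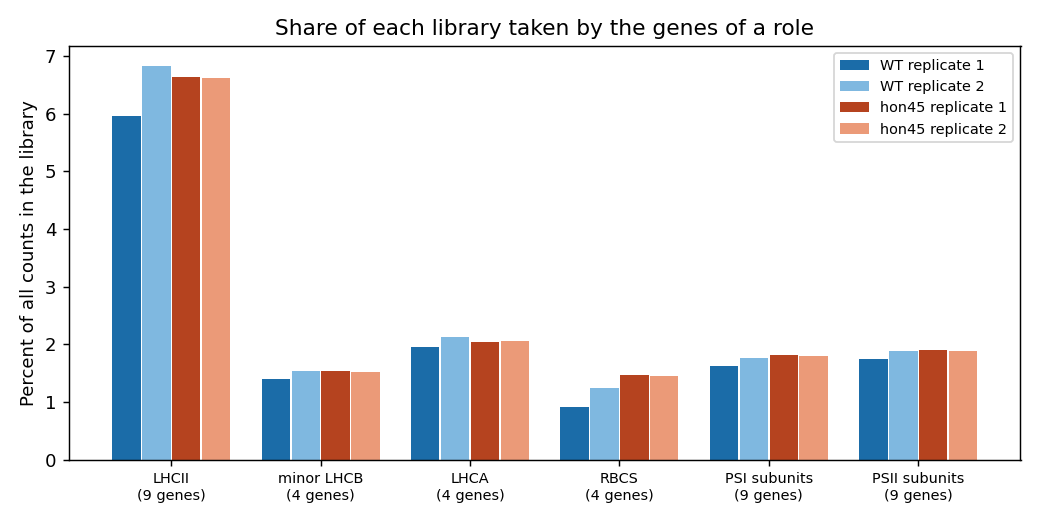
Percent of all counts in a library (vertical, from 0) taken by the genes of each role (horizontal), with each bar a library. RBCS genes took 0.92% and 1.24% in WT and 1.47% and 1.45% in hon45, while for LHCII the hon45 bars lie between the WT bars.

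Many of these genes are close copies that lie next to each other. LHCB1.2, LHCB1.1 and LHCB1.3 fall within 6.8 kb of chromosome 1 (10472280 to 10479048), LHCB1.5 and LHCB1.4 within 7.4 kb of chromosome 2, LHCB2.2 and LHCB2.1 within 25.2 kb of chromosome 2, and 3 RBCS genes in the cluster on chromosome 5. Counts and FPKM divided such families differently. RBCS1A took 37.1% of RBCS counts but 65.1% of RBCS FPKM as WT means, and RBCS1B took 15.4% and 2.66%. The transcript length that would reconcile a gene's count with its FPKM exceeded the annotated gene span in 7 of the 39 genes, all in the RBCS, LHCB1 and LHCB2 families. It was 7683 bases for RBCS1B against a span of 2154, and 2966 bases for RBCS2B against 1165. Levels of single copies in these families are uncertain for that reason.

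RBCS1A held between 36.2% and 37.5% of RBCS counts in all 4 libraries, and RBCS3B between 32.3% and 33.3%. RBCS2B held 14.7% and 15.5% in WT and 14.6% and 17.0% in hon45, and RBCS1B 15.4% and 15.5% in WT and 15.2% and 13.9% in hon45, so hon45 replicate 2 had the highest share of RBCS2B and the lowest of RBCS1B. In LHCB1, LHCB1.5 held 32.3% and 28.6% in WT against 27.5% and 27.2% in hon45. LHCB1.3 held 27.3% and 27.5% in WT against 29.7% in both hon45 libraries. LHCB1.5 thus led in WT and LHCB1.3 in hon45, by counts as by FPKM, with the reads of AT2G08665 included in LHCB1.5. With copies summed, LHCB1 had a log2 fold change of 0.07, LHCB2 of -0.03, LHCB4 of -0.04, PSBO of 0.06 and PSBQ of 0.23. The edgeR test called none of these families, with SEs from 0.17 for PSBQ to 0.48 for LHCB1.

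**Figure D4:**
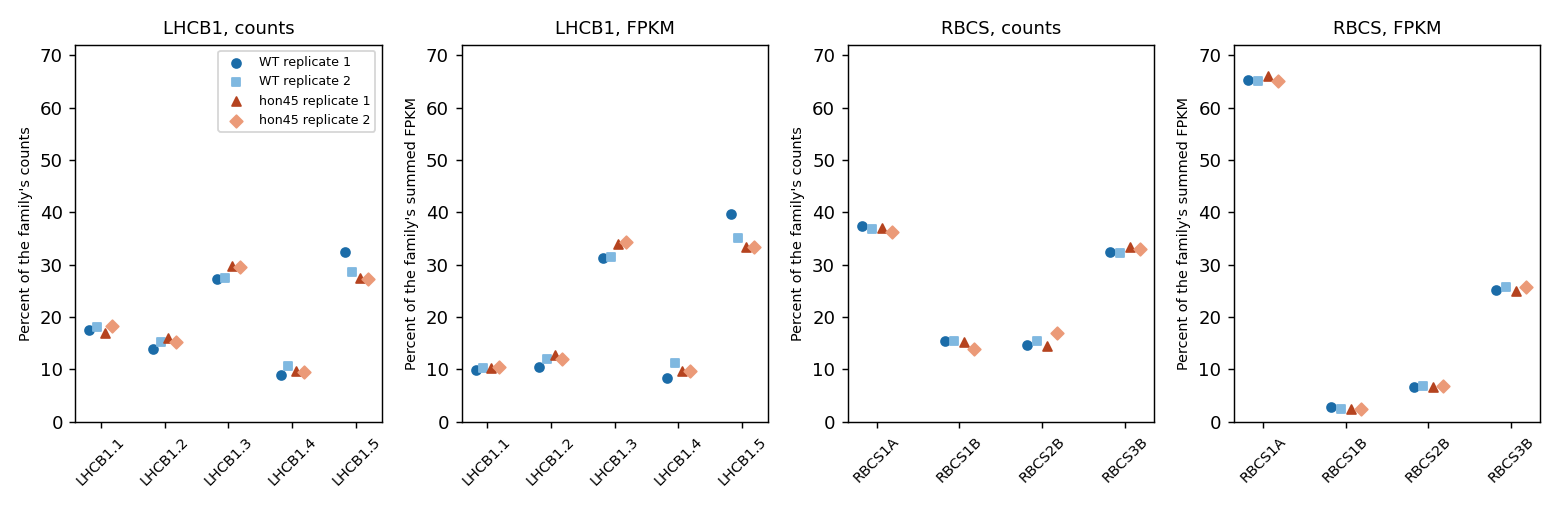
Percent of the family total (vertical, from 0) held by each LHCB1 and RBCS copy (horizontal), by counts and by summed FPKM, with each point a library. RBCS1A holds 36.2% to 37.5% of counts and 65.0% to 66.0% of FPKM, and LHCB1.5 falls below LHCB1.3 in the hon45 libraries only.

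Other genes of photosynthesis were read from 6 related lists with 91 genes in all, of which 16 rose in hon45, where 2.48% of all tested genes did, and 0 fell. Their median log2 fold change was 0.25, with 78 above 0. Left out of the fit, WT replicate 1 made this count 10 (1.97% of all genes rose in that fit), WT replicate 2 made it 47 (7.46%), hon45 replicate 1 made it 6 (0.615%) and hon45 replicate 2 made it 2 (0.122%). With the replicate block it was 26 (3.84%), with a filter of 5 CPM in 2 libraries 6 (2.19%), and in the limma fit on log2(FPKM + 1) 1 (0.205%). As for the 39 genes, WT replicate 1 was the lowest library for most genes of each list, beside 27.5% of all tested genes. It was lowest for between 8 of 12 and 15 of 16 genes in the first 5 lists and for 10 of 17 in the last, of regulators.

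Further photosystem genes came closest to the 39 in kind, and 2 of 12 rose. LHCB4.3, an LHCB4 relative expressed at a low level, had 6.558 and 5.796 CPM in WT and 11.04 and 11.58 in hon45, a log2 fold change of 0.87 ± 0.14 (edgeR adjusted p = 0.00178). Its WT libraries were close and WT replicate 1 was not the lower. PSB28, a photosystem II assembly factor, rose by 0.37 ± 0.10 (edgeR adjusted p = 0.0366). The call on PSB28 was lost when WT replicate 1 or either hon45 library was left out, with the filter of 5 CPM, with the older edgeR method and on FPKM, and that on LHCB4.3 on FPKM with no filter. The list had 6 calls without WT replicate 2. Second copies of photosystem I genes showed no call, with 0.31 for PSAD2, 0.10 for PSAE2 and -0.02 for PSAH1, and PSBS, which serves energy dissipation, stood at 0.10.

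Of 14 electron transport genes 2 rose, the ferredoxin-NADP reductase gene FNR2 by 0.50 ± 0.14 (edgeR adjusted p = 0.0477) and PGRL1B, of cyclic electron flow, by 0.43 ± 0.11 (adjusted p = 0.0333). Neither was called when WT replicate 1 or either hon45 library was left out, with the filter of 5 CPM, with the gene-length trend removed or on FPKM. FNR2 was also lost with library totals and with no count filter. Of the 14 genes, 8 were called without WT replicate 2. Of 16 Calvin cycle genes 0 were called by edgeR, 6 had an unadjusted p under 0.05 and DESeq2 called 4; 7 were called by edgeR without WT replicate 2. All 16 had log2 fold changes above 0, with a median of 0.23. SBPASE, the sedoheptulose bisphosphatase, stood at 0.42 (edgeR adjusted p = 0.0567) and GAPA2, a glyceraldehyde phosphate dehydrogenase subunit, at 0.48 (edgeR adjusted p = 0.0637).

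In chlorophyll synthesis 7 of 16 genes rose, with a median log2 fold change of 0.39. DVR, the divinyl reductase, had 18.8 and 31.2 CPM in WT and 47.1 and 46.3 in hon45, and rose by 0.90 ± 0.15 (edgeR adjusted p = 0.00251). CHLI1, a magnesium chelatase subunit, rose by 0.74, HEMA1, the glutamyl-tRNA reductase at the start of the pathway, by 0.65, and GSA2, a glutamate semialdehyde aminotransferase, by 0.60 (edgeR adjusted p = 0.00277, 0.00988 and 0.0136). The 7 calls became 4 with WT replicate 1 left out, 12 with WT replicate 2 left out, and 2 and 1 with hon45 replicates 1 and 2 left out; they were 3 with the filter of 5 CPM, 4 with overlapping genes left out and 0 on FPKM. DESeq2 did not call DVR. With overlapping genes left out, a gene that overlaps another was not tested, so fewer calls there need not be lost calls.

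Of 16 genes for assembly and targeting 5 rose. CPN60B1, a chaperonin subunit, rose by 0.75, CPSRP54, which carries LHC proteins to the thylakoid, by 0.67, Y3IP1, of photosystem I assembly, by 0.60, and BSD2, a Rubisco assembly chaperone, by 0.44 (edgeR adjusted p = 0.00616, 0.0109, 0.00383 and 0.0191). These 5 calls became 9 without WT replicate 2 and 9 with the replicate block, 3 and 0 without hon45 replicates 1 and 2, 8 with RLE factors, 2 with the filter of 5 CPM and 0 on FPKM. DESeq2 did not call CPN60B1 or CPSRP54.

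Among 17 regulators of photosynthesis genes 0 were called by edgeR, with 5 at an unadjusted p under 0.05, 1 call by DESeq2, 5 by edgeR without WT replicate 2, and a median log2 fold change of 0.08. GLK1 and GLK2, transcription factors that activate LHC genes, stood at -0.10 and -0.13, and HY5, a light-signalling factor, at -0.03. COP1, which targets HY5 for degradation, was at 0.39 (edgeR adjusted p = 0.0518) and the photoreceptor gene PHYB at 0.33 (adjusted p = 0.0647).

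**Figure D5:**
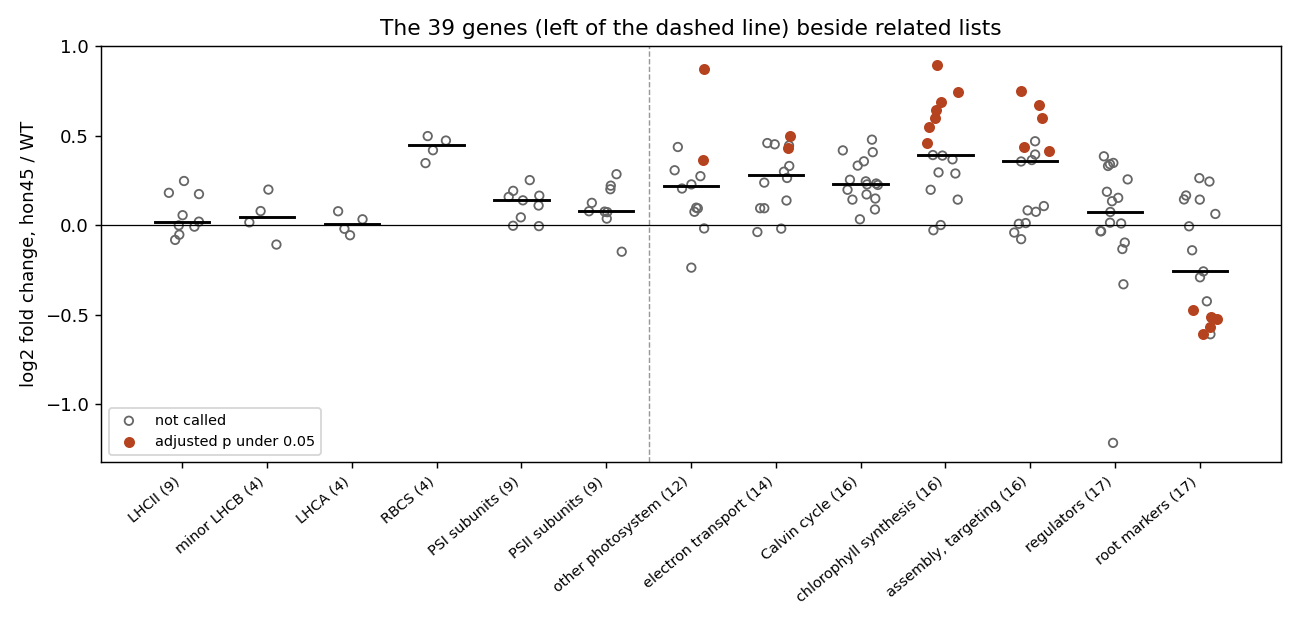
Log2 fold change of hon45 over WT (vertical) for each gene of the 39 by role and, right of the dashed line, of the related lists and root markers (horizontal, number of genes in brackets), with filled points at an adjusted p under 0.05 and bars at medians. The 39 genes hold 0 filled points, chlorophyll synthesis 7, and the 5 filled root markers lie below 0.

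Markers of other seedling tissues moved between the same libraries. Of 17 root markers 5 were called lower in hon45 and 0 higher, where 1.63% and 2.48% of all tested genes were. Their median log2 fold change was -0.26, with 11 below 0 and 6 above. Both hon45 libraries lay below both WT libraries for 9 markers and above both for 3, PYK10 among the latter. Over all tested genes these arrangements were found in 26.2% and 23.1%. The 5 called were EXP18, PRP3, EXP7, CASP1 and the TIP gene AT5G47450. Their log2 fold changes were -0.607, -0.525, -0.473, -0.512 and -0.567 (edgeR adjusted p = 0.00391, 0.00912, 0.016, 0.0123 and 0.00656). CASP1, of the endodermal barrier, stood at 110.0 and 87.3 CPM in WT against 67.0 and 71.3 in hon45. None of the 5 was called without hon45 replicate 2, 1 was called without hon45 replicate 1, 3 were with overlapping genes left out and 0 on FPKM. Of 7 markers of shoot epidermis and guard cells 1 rose, ATML1 by 0.42 (edgeR adjusted p = 0.0288), with a summed level of 204.0 and 215.6 CPM in WT and 231.6 and 250.7 in hon45. The call on ATML1 was lost when WT replicate 1 or either hon45 library was left out, with the filter of 5 CPM, with the gene-length trend removed and on FPKM. Of the 4 ribosomal RNA gene rows, both 5.8S rows were lower in hon45, most of all in hon45 replicate 2 at 197.4 and 201.3 CPM. Neither was called without that library or with DESeq2. The part of these differences in the values of the 39 genes was not tested.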

How the data were processed

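RNA libraries of WT and hon45 seedlings (n = 2 each) were analysed. The authors deposited raw whole-number counts per gene and, per the file headers, FPKM values per gene and library with a locus. HISAT2, Bowtie2, deepTools, edgeR and the TAIR10 build are named, with no roles, per the submitters' processing notes. Not given in the sources used here are the counting program, its use of strand and its handling of reads that match several copies. The 3 chromatin immunoprecipitation samples were not analysed here. Coordinates were taken from the FPKM files, with 1 added to the start, and overlapping genes share a merged locus there. Names, gene spans and overlaps came from a RefSeq table of TAIR10.1, which matched all 39 genes; 13 overlap another counted gene.

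Counts were filtered with filterByExpr, scaled by TMM and tested with the edgeR 4.0.16 quasi-likelihood test in R 4.3.3 with group as the only term, fitted on all genes, with Benjamini-Hochberg adjustment. A gene was called at an adjusted p under 0.05. CPM values use TMM-scaled totals. The SE is the size of the log2 fold change divided by the root of F. Intervals are 95%. FPKM values were tested with limma 3.58.1 on log2(FPKM + 1), which understates changes of low genes, for genes with at least 1 FPKM in 2 libraries. Alternatives were RLE factors, library totals, TMM without the 39 genes, other filters, DESeq2 1.42.0, limma-voom, a block for the replicate number, leaving out each library, a pseudocount of 0.1, overlapping genes left out, a gene-length trend removed (spline with 4 degrees of freedom over 10161 genes of at least 5 CPM) and family copies summed. With overlapping genes left out, members and list genes that overlap another were not tested and could not be called. The older quasi-likelihood method and leaving out ribosomal RNA genes were chosen after seeing the data. The procedure was tested on simulated data.

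The 39 genes and the lists were chosen with earlier results of these data known. Full statistics were given for the member of each role with the highest FPKM, highest and lowest log2 fold change. Up to 4 called genes of each list with the smallest p, otherwise 2 not called, were also chosen by rule, as were HON4 and HON5. For most of these only some of the statistics are printed. Other genes were named after their values were seen. Values rest on 2 libraries per group, and totals of 53858439 to 63543079 counts make counting error small beside the spread between libraries.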

Additional observations from a re-analysis of the deposited data

How the results depend on the processing

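With 2 libraries per group, each library had a large part in the calls. Genes called over all genes, 1199, became 724 with a filter of 5 CPM in 2 libraries, 654 with the gene-length trend removed, 121 on log2(FPKM + 1), 110 on log2(FPKM + 0.1), 7 on FPKM with no filter, and 119 to 3837 with a library left out. The 39 genes had 0 calls as higher, and 2 with DESeq2, 3 with limma-voom, 1 with the older quasi-likelihood method and 0 to 4 with a library left out (4 without WT replicate 2), and 0 under the other alternatives; 0 were called lower under any of them. Their median log2 fold change, 0.08, was 0.005 to 0.21 with a library left out. The 16 calls as higher in the 6 related lists became 25 with RLE factors, 25 with limma-voom, 26 with DESeq2, 6 with the 5 CPM filter, 1 with either pseudocount on FPKM, 0 on FPKM with no filter and 2 to 47 with a library left out, and the calls as lower, 0, became 0 to 1. With the replicate block, 26 list genes, 0 of the 39 and 1769 of all genes were called. The labels do not say whether libraries with the same replicate number were handled together. The replicate differences of WT and hon45 correlated at 0.06 over 15592 genes, which cannot decide this, since a small shared effect could leave a value as low. Where a library left an arm with 1 sample, that sample was assumed to vary like the other group. For the members and list genes chosen by rule, 757 comparisons with an alternative gave 109 lost calls, 27 gained ones and 15 changes of sign. The changes of sign were all in members not called under either setting: LHCB1.5 went from -0.08 to 0.03 with the gene-length trend removed. LHCA1 went from 0.03 to -0.002 with the 5 CPM filter and lay between -0.051 and 0.127 with a library left out. In the same fits LHCA4 lay between -0.019 and 0.188 and LHCA3 between -0.079 and 0.007. PSAO, at -0.004, was at 0.019 with RLE factors, 0.014 with TMM without the 39 genes, 0.018 with no filter, 0.026 with DESeq2, 0.001 with overlapping genes left out, 0.096 with the gene-length trend removed, 0.014 without ribosomal RNA genes and between -0.041 and 0.05 with a library left out. The cause of these changes was not tested.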
